A study of Mus musculus with 4 samples.

Results

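The core circadian clock genes of the mouse were followed through hearts at embryonic day E10.5, in 10 genes (Arntl, Clock, Per1, Per2, Per3, Cry1, Cry2, Nr1d1, Nr1d2 and Dbp) out of the 32285 genes counted. In the clock, the proteins of Arntl (also called Bmal1) and Clock pair and bind E-box sequences, where they switch on the Per and Cry genes, whose products feed back to silence the pair. A second loop runs through the nuclear receptors Nr1d1 and Nr1d2 (Rev-erb alpha and beta), which repress Arntl, while Dbp, a factor that binds D-box sequences, passes the rhythm on to output genes. In a cycling adult tissue Arntl and the E-box driven genes peak at opposite times of day, and embryonic tissue is known to gain its own rhythm only gradually.

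The members were chosen by their names, and they were chosen from these data because a set of clock genes had been seen higher in the mutant cardiomyocyte-like cells. The comparison of the genotypes in those cells is therefore given as a description with no test. The comparison of cell groups with each other carries the tests. The choice did not compare cell groups, but the set was seen in cardiomyocyte-like cells, and those cells of Ho1 and Ho2 also enter the comparison. The choice can therefore lift the cardiomyocyte-like side of it. Single-cell libraries were made from hearts of C57BL/6J embryos, 2 from wild-type embryos (Wt1 and Wt2) and 2 from embryos with the genotype Cyp51 I383V/I383V (Ho1 and Ho2), an allele introduced with CRISPR/Cas9 into the gene for lanosterol demethylase, an enzyme of cholesterol synthesis. How many hearts went into a library and the hour of dissection were not given in the sources used here, and the p-values below measure the spread between these libraries, which may be technical. The mice were kept under alternating light and dark.

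Each mRNA molecule was counted once by its unique molecular identifier (UMI). After filters on cells, the Wt libraries kept 9654 and 7618 cells and the Ho libraries 7420 and 6460, with medians of 10852, 14456, 16164 and 16012 UMIs per cell. Pairs of libraries shared between 12 and 32 cell barcodes. Ho1 stood apart from the other libraries, with 31886 UMIs of Xist, the RNA of the inactive X chromosome, and 0 of the Y-linked Ddx3y, whereas the other 3 had at most 5 UMIs of Xist and at least 2920 of Ddx3y. Sex and genotype were thus partly mixed, and differences of the members between the genotypes without Ho1 are given beside the results.

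Cells were placed in 5 gates by a single marker. The cells of no gate, 33.5%, 21.5%, 10.2% and 26.6% of those kept in Wt1, Wt2, Ho1 and Ho2, did not enter the tests. The Tnnt2 gate (cardiac troponin T) held 1841, 2740, 3606 and 2525 cells in Wt1, Wt2, Ho1 and Ho2, and all 10 genes of a cardiomyocyte list were higher in it than in the other gates (median log2 difference 6.43), so these cells are called cardiomyocyte-like. The Cdh5 gate (VE-cadherin) held 824, 1169, 1253 and 643 cells, with 8 of 8 endothelial genes higher. The Upk3b gate (uroplakin 3b) was small, at 147, 197, 137 and 210 cells, with 5 of 5 epicardial genes higher. The Hapln1 gate (a hyaluronan link protein) held 1053, 1339, 1550 and 952 cells and raised both the cushion mesenchyme list (6 of 6) and the endothelial list (8 of 8), and the Crabp1 gate (a retinoic acid binding protein) raised both pharyngeal mesenchyme (6 of 6) and epithelial genes (4 of 4), so both are named by their marker only. The Crabp1 gate was uneven, with 2479 cells in Wt1, 495 in Wt2, 388 in Ho2 and only 47 in Ho1, where 1 UMI stood for more than 1 in 1000000.

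The clock motifs were searched for in the RefSeq promoter windows of GRCm38.p6, 250 bases before to 50 after each start, on both strands. Windows were held for 9 of the 10 members, 13 in all, and 4 members had a match. The E-box CACGTG was found in 7.15% of all 32851 windows, the D-box TTATGNAA in 3.38% and the ROR element TAGGTCA, which Nr1d1 and Nr1d2 share with the Ror receptors, in 2.61%. The stretches below show where the letters lie in the members whose levels are described next, with the motif in capitals, 5′ to 3′ on the strand of the gene, and they overlap no other of these motifs.
Per1 E-box at -166 (chr11:69098757-69098814, plus strand): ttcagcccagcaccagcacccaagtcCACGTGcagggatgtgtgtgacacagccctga
Per1 D-box at -24 (chr11:69098899-69098948, plus strand): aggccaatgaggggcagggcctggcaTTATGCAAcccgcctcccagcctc
Cry1 E-box at -60 (chr10:85185083-85185140, minus strand): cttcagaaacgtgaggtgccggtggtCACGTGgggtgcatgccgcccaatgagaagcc
Per3 D-box at -205 (chr4:151044837-151044896, minus strand): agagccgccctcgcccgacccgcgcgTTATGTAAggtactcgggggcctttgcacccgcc
Arntl ROR element at 31 (chr7:113207530-113207559, plus strand): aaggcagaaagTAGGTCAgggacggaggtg
Per3 held a further D-box match at -158. A match describes letters in a window and not a bound site, and these windows leave out more distant elements.

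Nr1d1 separated the cardiomyocyte-like cells from every other gate. Its level there was 19.0 and 17.6 CPM in Wt1 and Wt2 and 21.8 and 19.6 CPM in Ho1 and Ho2, where CPM are UMIs per 1000000 UMIs of the summed cells after normalization. In the Cdh5 gate it was 0.66, 1.07, 2.03 and 1.12 in the same order, and in the Hapln1 gate 1.27, 1.62, 2.70 and 1.50. All 4 cardiomyocyte-like values lay above all 16 values of the other gates, of which the highest, 4.34 in the Crabp1 gate of Ho1, rested on 3 UMIs. In the cells of no gate Nr1d1 was at 0.818, 1.72, 5.81 and 2.80 UMIs per 1000000 in Wt1, Wt2, Ho1 and Ho2, before normalization. The Upk3b gate of Wt1 had 0 UMIs of Nr1d1, which allows up to 1.14 CPM. Over 4 libraries the means were 19.5 ± 1.73 (SD, n = 4) in the Tnnt2 gate and 1.22 ± 0.58 to 1.77 ± 0.634 in the other 4 gates, which did not differ from each other beyond their spread.

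**Figure D1:**
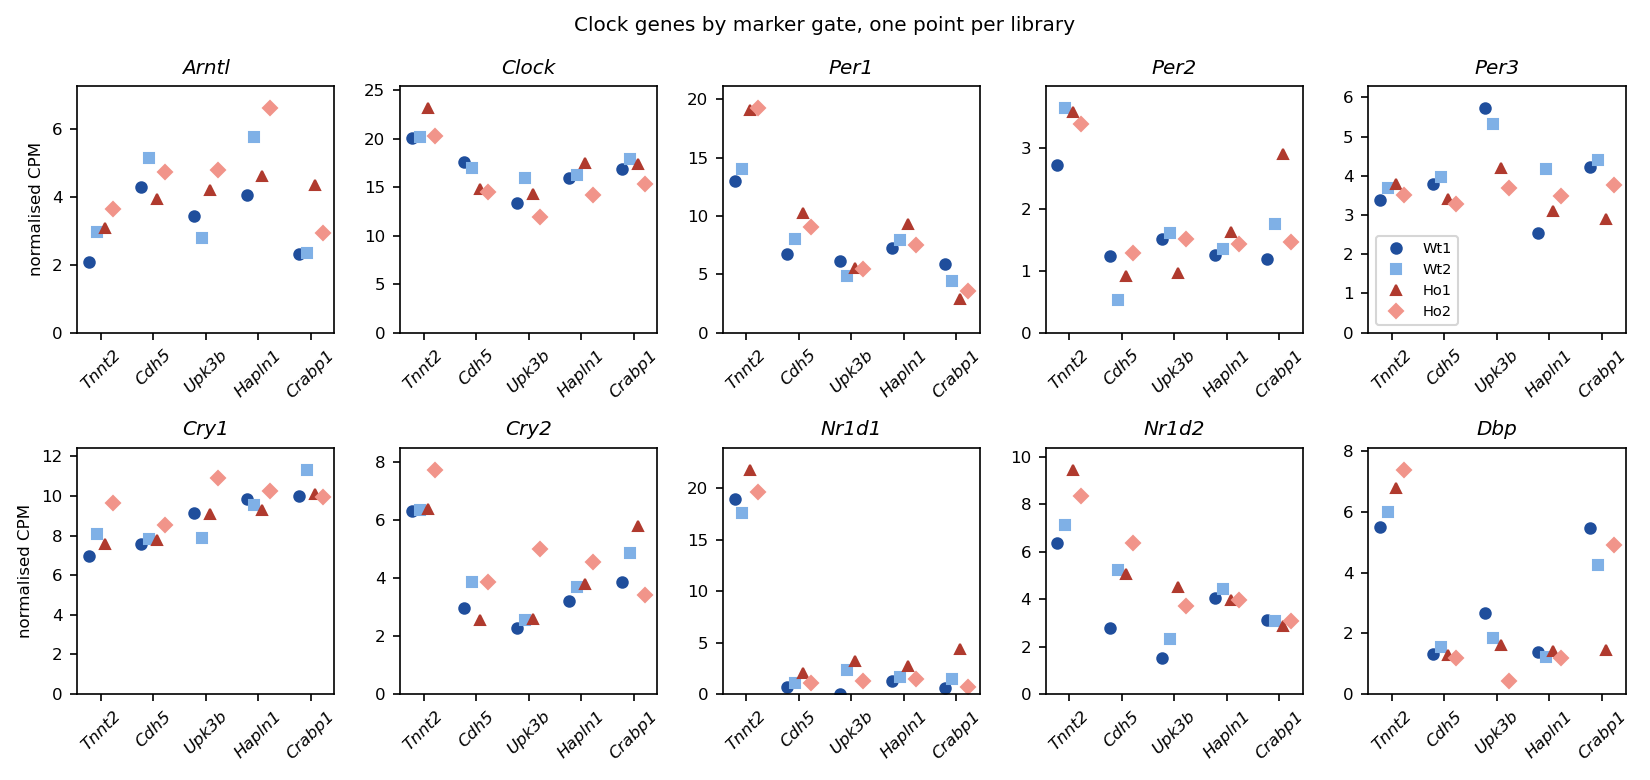
Levels of the 10 clock genes (normalised CPM, each axis from 0) in the 5 marker gates, with 1 point per library (blue for Wt, red for Ho). Nr1d1 lies between 17.6 and 21.8 in the Tnnt2 gate and at or below 4.34 in the other gates, while Per3 and Cry1 overlap between the gates.

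Fitted across all genes with the library as a block (edgeR quasi-likelihood test with Benjamini-Hochberg adjustment), Nr1d1 was higher in the Tnnt2 gate than in the mean of the other 4 gates by 3.82 ± 0.149 on the log2 scale (SE, adjusted p = 3.54e-14). It ranked 410th from the highest of 14385 genes tested. Without Ho1 the difference was 4.08, and without Wt1 3.52. Nr1d1 (ENSMUSG00000020889, chr11:98767932-98775333, minus strand of GRCm38) overlaps exons of Thra, the thyroid hormone receptor gene on the other strand, and the default counting of this kit keeps the strands apart. Thra was itself higher in the Tnnt2 gate, at 70.2, 68.4, 62.2 and 76.8 CPM, and stood at 16.7 to 42.6 in the other gates. The part of reads from the other strand in the counts of Nr1d1 was not tested. Dbp, Cry2 and Arntl also overlap exons of a gene on the other strand (Sphk2, D930015M05Rik and Gm45355), and 0 members overlap one on their own strand.

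RNA freed from lysed cells can be caught in the droplets of other cells, and a set of contractile and cardiac genes was followed beside Nr1d1. The 10 cardiomyocyte genes together, with Myl7 most often the most abundant and none at 0, reached 0.92% and 0.92% of their Tnnt2-gate level in the Cdh5 gate of Wt1 and Wt2, and 1.95% and 1.05% in Ho1 and Ho2. Nr1d1 in the same Cdh5 cells stood at 3.47%, 6.04%, 9.33% and 5.72% of its Tnnt2-gate level. In the Hapln1 gate the marker set reached 1.13%, 1.50%, 3.00% and 1.39% and Nr1d1 6.68%, 9.17%, 12.4% and 7.66%. In both gates both quantities were highest in Ho1. The Upk3b gate was mixed, with the marker set at 6.15%, 4.13%, 8.08% and 6.03% and Nr1d1 at 0%, 13.1%, 14.9% and 6.66%. In the Crabp1 gate the marker set was at 0.748%, 1.17%, 2.61% and 1.41% and Nr1d1 at 2.97%, 8.33%, 19.9% and 3.33%. These gates leave out cells that meet the Tnnt2 minimum, which lowers the marker set by construction, and the part of free RNA in the levels of Nr1d1 was not tested. At least 1 UMI of Nr1d1 was found in 17.4%, 20.9%, 24.8% and 24.4% of cells of the Tnnt2 gate and in 0.971%, 1.80%, 3.35% and 2.02% of cells of the Cdh5 gate, whose median depths were close (12871 to 18468 and 13412 to 16265 UMIs).

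Across the members, 7 of 10 were called higher in the Tnnt2 gate and 2 lower. The wide contrast makes such calls common, since 37.9% of all 14385 genes were called higher and 34.6% lower, and the median log2 difference was 0.97 for the members and 0.01 for all genes. Of Per1, Per2, Per3, Nr1d1, Nr1d2 and Dbp, the 6 genes later set against Arntl, all but Per3 were higher. The cryptochromes, also driven through E-boxes, went both ways, with Cry2 higher and Cry1 lower. Of the activator pair Clock was higher and Arntl lower.

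Among the Per genes, whose proteins form the repressing complex, Per1 (chr11:69095217-69109960, plus strand) was at 13.0 and 14.1 CPM in Wt1 and Wt2 and at 19.1 and 19.2 in Ho1 and Ho2 in the Tnnt2 gate. In the Cdh5 gate it was at 6.76, 8.04, 10.2 and 9.05, and in the Crabp1 gate at 5.91, 4.41, 2.89 and 3.59. All 4 values of the Tnnt2 gate lay above the 16 others, and the order of the gates by mean was Tnnt2, Cdh5, Hapln1, Upk3b and Crabp1, with the Cdh5 and Hapln1 gates (8.51 ± 1.47 and 8.0 ± 0.896, SD, n = 4) within their spread. Per1 was higher in the Tnnt2 gate by 1.28 ± 0.0956 log2 units (adjusted p = 6.30e-10). Per2 (chr1:91415982-91459324, minus strand) was sparse, at 2.72, 3.64, 3.58 and 3.39 in the Tnnt2 gate and 0.533 to 2.89 elsewhere, a difference of 1.36 ± 0.143 (adjusted p = 8.13e-08). For Per3 (chr4:151003652-151044665, minus strand) no such difference was called, at 3.38 to 3.80 in the Tnnt2 gate and 2.53 to 5.72 elsewhere (-0.11 ± 0.0985, adjusted p = 0.329).

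The cryptochromes, partners of the Per proteins, parted from each other. Cry2 (chr2:92403646-92434043, minus strand) was at 6.29, 6.35, 6.36 and 7.72 in the Tnnt2 gate, above all 16 other values (2.29 to 5.78), and was higher by 0.89 ± 0.103 (adjusted p = 2.93e-07). Cry1 (chr10:85131700-85185064, minus strand) ranged from 6.95 to 9.63 there and from 7.58 to 11.3 in the other gates, so that the ranges overlapped. It was called lower by a small margin (-0.20 ± 0.0662, adjusted p = 0.0117), a call that was lost without Ho1 (-0.18), without Wt1 (-0.16) or with no filter on low counts (-0.18).

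Dbp had a second gate of high levels. The gene (chr7:45705088-45710203, plus strand) stood at 5.49, 6.01, 6.79 and 7.39 in the Tnnt2 gate, and at 5.48, 4.26 and 4.90 in the Crabp1 gate of Wt1, Wt2 and Ho2, against 1.20 to 1.55 in all 8 sums of the Cdh5 and Hapln1 gates. The Crabp1 gate of Ho1 gave 1.45, from 1 UMI. The edgeR fit called Dbp higher in the Tnnt2 gate by 1.75 ± 0.136 (adjusted p = 1.17e-09) and in the Crabp1 gate by 1.26 ± 0.190 (adjusted p = 2.14e-05), and by 1.32 there without the sparse sum of Ho1. Nr1d1 in the same Crabp1 cells was at 1.76 ± 1.77 (SD, n = 4), within the spread of the Cdh5, Upk3b and Hapln1 gates.

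Nr1d2 (chr14:18204054-18239127, minus strand), the relative of Nr1d1, was less sharply distributed, at 6.39, 7.13, 9.46 and 8.37 in the Tnnt2 gate and 1.53 to 6.38 elsewhere, with the Cdh5 gate next (4.87 ± 1.50, SD, n = 4). It was higher in the Tnnt2 gate by 1.05 ± 0.116 (adjusted p = 1.87e-07). Clock (chr5:76209868-76304792, minus strand) had the smallest difference of the members called higher, at 20.1, 20.2, 23.1 and 20.2 in the Tnnt2 gate against 12 to 17.9 elsewhere (0.42 ± 0.0558, adjusted p = 1.71e-06). Arntl (chr7:113207465-113314126, plus strand) went the other way, at 2.07, 2.96, 3.09 and 3.65 in the Tnnt2 gate. Although the Cdh5 gate was higher in Wt1, Arntl was highest by mean in the Hapln1 gate, at 4.07, 5.75, 4.62 and 6.61. It was lower in the Tnnt2 gate by 0.40 ± 0.111 (log2 fold change -0.40, adjusted p = 0.00326) and higher in the Hapln1 and Cdh5 gates, by 0.62 ± 0.110 (adjusted p = 1.36e-04) and 0.36 ± 0.117 (adjusted p = 0.0119), the latter lost without Wt2 (0.27).

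**Figure D2:**
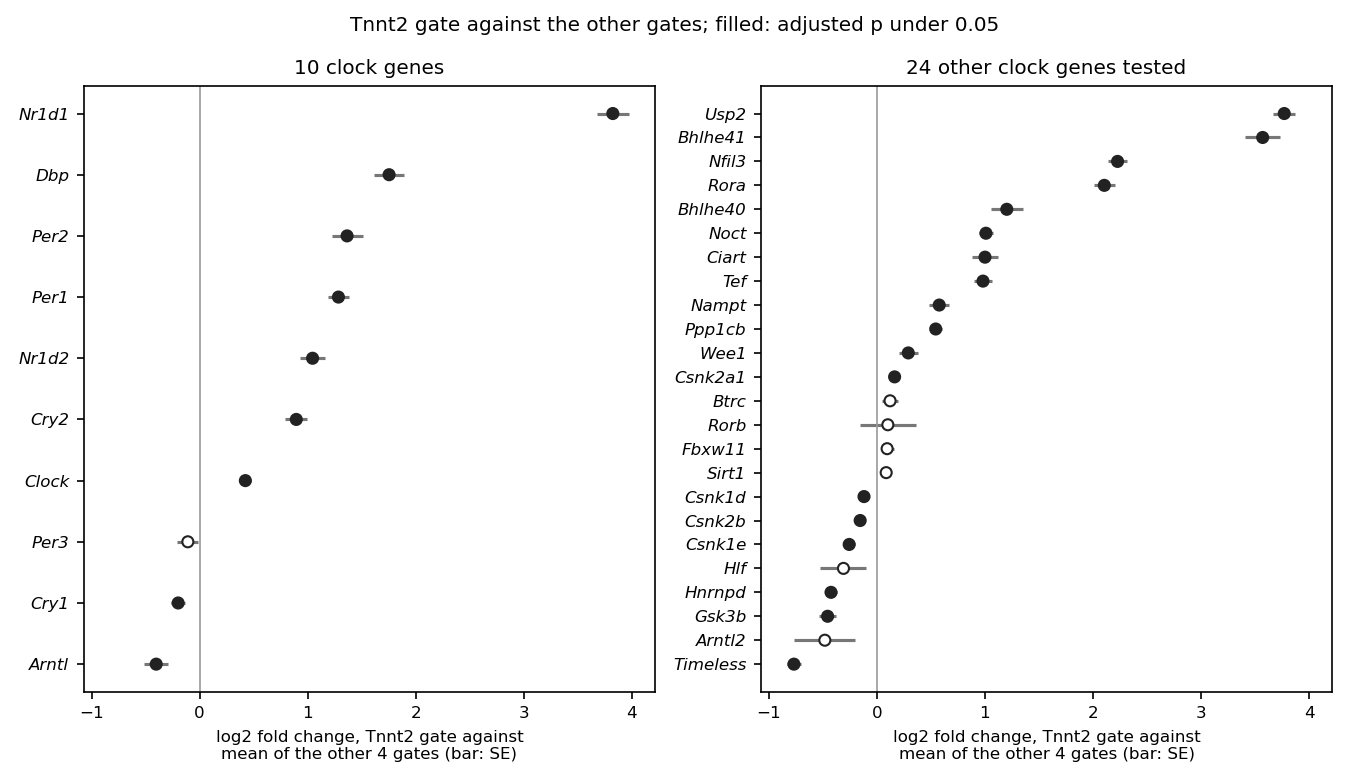
Log2 fold change (horizontal axis, bars are SE) of the Tnnt2 gate against the mean of the other 4 gates, for the 10 members (left) and 24 other clock genes (right), filled where the adjusted p of the edgeR test was under 0.05. Nr1d1 at 3.82 lies apart from the other members, and Usp2, Bhlhe41, Nfil3 and Rora lead the other clock genes.

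In the other gates the calls of members were fewer. Each of these gates is set against a mean that holds the Tnnt2 gate, so that a member high there is pushed toward a lower call by construction, and no direction of the set is read from the counts. In the Cdh5 gate 1 member was called higher and 5 lower (29.4% and 30.2% of all genes), and Per2 and Dbp were among the lower (-0.93 ± 0.206 and -1.05 ± 0.203, adjusted p = 8.02e-04 and 2.19e-04). Of the lower calls, Cry1 and Cry2 were each lost in 4 of 13 repeats and Dbp in 1 of 13. The Upk3b gate had 0 higher and 4 lower (21.8% and 24.1% of all genes), namely Clock, Per1, Nr1d2 and Dbp, with Per1 at -0.70 ± 0.184 (adjusted p = 0.00434). Of these, Dbp (-0.46 without Ho2), Nr1d2 (-0.53 without Wt2) and Clock (-0.28 without Ho2) lost the call in 5 of 13, 4 of 13 and 2 of 14 repeats. The Hapln1 gate had 1 higher, Arntl, and 1 lower, Dbp at -1.11 ± 0.197 (adjusted p = 1.35e-04), against 25.9% and 20.5% of all genes. In the Crabp1 gate 2 were higher, Dbp and Cry1 at 0.25 ± 0.0850 (adjusted p = 0.0178, lost without Wt1 or without Wt2), and 4 lower (25% and 28.8% of all genes), with Per1 at -0.71 ± 0.151 (adjusted p = 6.88e-04), and the lower call of Nr1d2 there was lost in 8 of 13 repeats under other settings (-0.33, adjusted p = 0.238, without Ho2). With 10 members and shares of all genes of this size, nothing particular to the clock genes is read from these counts.

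Beyond the members, 27 further genes of the clock were listed, of which 24 were tested between gates, and 12 were higher and 6 lower in the Tnnt2 gate, beside 37.9% and 34.6% of all genes. Usp2, a ubiquitin protease whose mRNA is a clock output, was at 31.0, 35.9, 33.6 and 37.8 CPM in Wt1, Wt2, Ho1 and Ho2 and at or under 3.81 in every other sum (3.77 ± 0.102, adjusted p = 1.80e-16). Bhlhe41, a repressor that binds E-boxes, was at 18.6, 17.6, 18.8 and 17.6, and its highest value elsewhere was 8.49, in the Upk3b gate (3.57 ± 0.165, adjusted p = 4.69e-13). Both differences were of the size found for Nr1d1, and the differences between these genes were not tested.

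The opposing arms at the D-box and the ROR element were both represented. Nfil3, a repressor at D-boxes, was at 51.3 to 72.0 in the Tnnt2 gate and 6.18 to 22.2 elsewhere (2.23 ± 0.0884, adjusted p = 4.77e-14). Rora, which activates at the element where Nr1d1 represses, was higher by 2.11 ± 0.0992 (adjusted p = 6.60e-13). Tef, a relative of Dbp, Ciart, a repressor of the Clock complex, and Noct, a rhythmic phosphatase, were higher by 0.98 ± 0.0806, 1.00 ± 0.117 and 1.01 ± 0.0658. Timeless, which acts in DNA replication, was lower (-0.77 ± 0.0634, adjusted p = 2.92e-09), and the kinase genes Csnk1d, Csnk1e and Gsk3b were lower by smaller amounts (-0.12, -0.26 and -0.46). Bhlhe40, the close relative of Bhlhe41, was higher in the Tnnt2 gate (1.20 ± 0.149, adjusted p = 7.59e-07) and in the Upk3b gate (2.58 ± 0.189, adjusted p = 2.46e-09), and the 2 differences were not tested against each other. In the Upk3b gate it stood at 4.96, 16.0, 15.5 and 17.6 CPM in Wt1, Wt2, Ho1 and Ho2, against 4.23, 5.79, 8.18 and 7.68 in the Tnnt2 gate. The other 6 genes called there, Nampt, Ppp1cb, Wee1, Csnk2a1, Csnk2b and Hnrnpd, lay between -0.42 and 0.58.

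Of the immediate early and heat shock genes, which respond to handling of tissue, 12 of 17 were higher and 1 lower in the Tnnt2 gate, and of the glucocorticoid responsive genes, which include Per1, 6 of 11 were higher and 4 lower, beside the same 37.9% and 34.6% of all genes. Their part in the levels of Per1 was not tested.

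Within the cardiomyocyte-like cells Nr1d1 was uneven. The cells were divided by Myl2, the ventricular myosin light chain, at 10 per 10000 UMIs, a division added after the levels were seen. Nr1d1 was at 22.4 ± 2.56 normalised CPM in cells under this minimum and 11.5 ± 1.53 in cells at or over it (SD, n = 4), and was higher in the former in 4 of 4 libraries. The difference was 0.96 ± 0.0634 on the log2 scale (edgeR, library as a block, adjusted p = 1.53e-09). Cells low in Myl2 were also high in Shox2, a factor of the sinus venosus, in Nr2f2, a factor of atrial identity, and in Sln, an atrial regulator of the calcium pump (4.71, 3.44 and 3.51), and low in the ventricular factor Hey2 (-3.91). Markers of other cells moved with the division, with 4 of 5 epicardial genes higher and 1 lower (median 1.63), all 4 pharyngeal mesenchyme genes tested higher (1.59), 4 of 6 cushion mesenchyme genes higher and 1 lower (0.88), 3 of 4 epithelial genes higher (0.54) and 2 of 7 endothelial genes higher (0.16). Twist1 is in both mesenchyme lists. Summed, the epicardial genes stood at 64.0, 61.3, 52.6 and 95.9 CPM in Wt1, Wt2, Ho1 and Ho2 in the cells low in Myl2, led by Tcf21. In the others they stood at 11.04, 17.6, 18.1 and 20.9, led by Tcf21 in Wt1 and Ho1 and by Tbx18 in Wt2 and Ho2. None was at 0 in either group. The pharyngeal genes stood at 116.0, 94.7, 65.3 and 109.3 against 43.8, 30.2, 24.0 and 22.9. They were led by Isl1 in the cells low in Myl2, and in the others by Twist1 in Wt1 and Ho1 and by Isl1 in Wt2 and Ho2. The sum of the cushion mesenchyme genes went the other way, led by Vcan (-1.09), at 302.9, 269.5, 266.5 and 270.8 against 456.3, 380.5, 455.0 and 430.6, also with none at 0. Mki67 and Top2a were lower (-0.66 and -0.50). The immediate early and heat shock genes, which respond to handling of tissue, moved in this division too, with 13 of 17 higher and 4 lower in the cells low in Myl2 (median 0.52). Among them Junb, Nr4a1 and Btg2 were higher by 1.16 ± 0.060, 1.04 ± 0.0906 and 0.96 ± 0.0523, each in 4 of 4 libraries. Summed, the list stood at 4078, 4477, 3873 and 4435 CPM in Wt1, Wt2, Ho1 and Ho2 in the cells low in Myl2 and at 3766, 3907, 3600 and 4052 in the others, led by Hspa8 and with none at 0. The part of these markers and genes in the difference of Nr1d1 was not tested. The median depth of the cells low in Myl2 was 12923 to 16927 UMIs per cell, against 12789 to 20461 in the others.

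Of the other members only Cry1 was called in this division (0.37 ± 0.0957, adjusted p = 0.00381), with 7.92 ± 1.4 and 6.19 ± 0.646. In all 2 of 10 members were higher and 0 lower, where 24.9% of all genes were higher and 25.7% lower. Under DESeq2 the count was 1, Nr1d1. Dbp and Nr1d2 were at 5.58 ± 0.609 and 6.72 ± 1.15 in the cells low in Myl2 and 5.63 ± 0.984 and 7.05 ± 1.13 in the others, within their spread. Among the other clock genes Bhlhe41 and Nfil3 followed Nr1d1 (1.00 ± 0.0739 and 0.53 ± 0.0453, adjusted p = 6.21e-09 and 4.32e-08). Gsk3b, Noct and Csnk1e were also called higher, by smaller amounts (0.42, 0.24 and 0.15). Usp2 (-0.22 ± 0.0567, adjusted p = 0.0044) and Timeless (-0.30) were called lower.

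**Figure D3:**
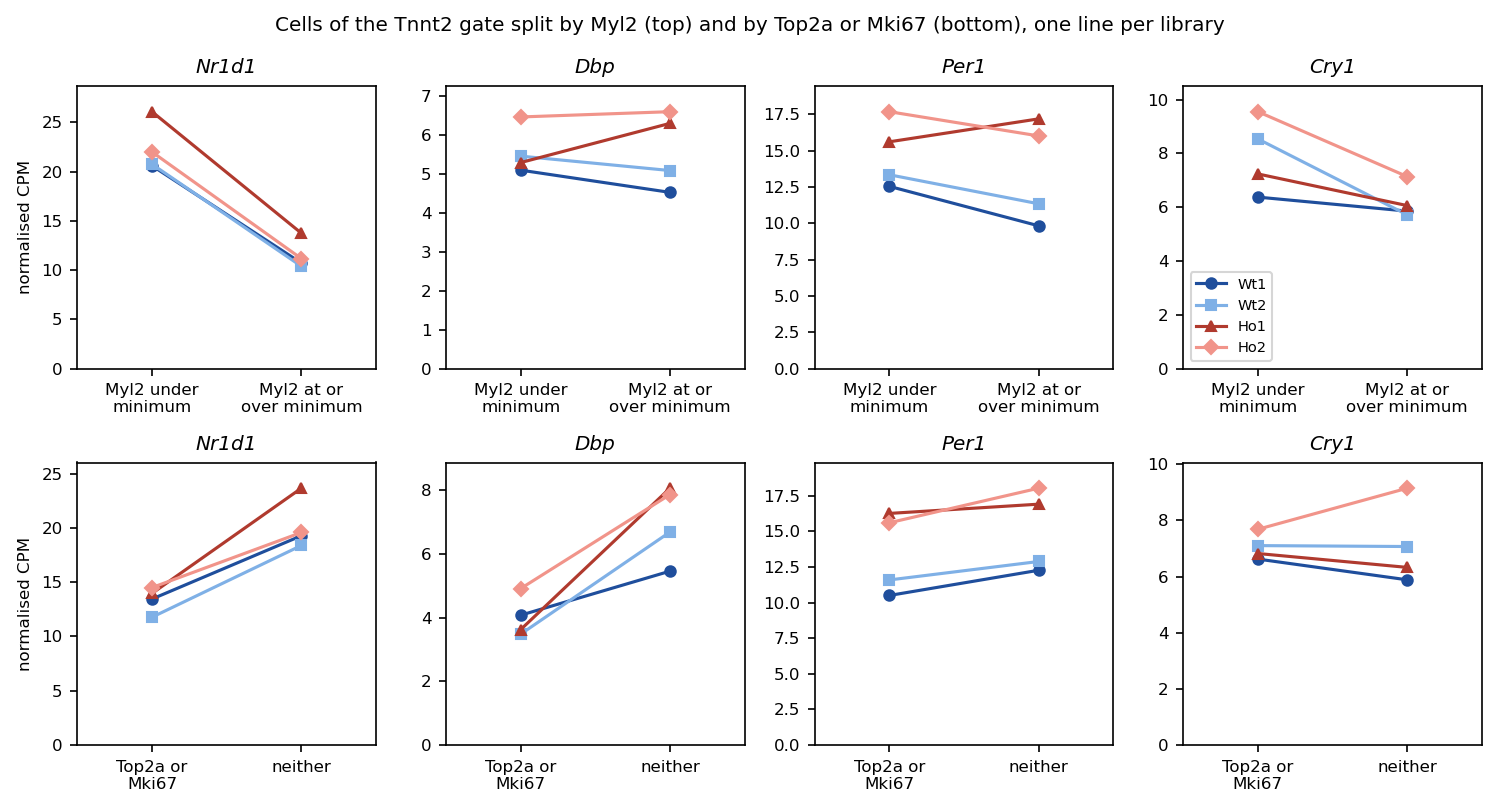
Levels of Nr1d1, Dbp, Per1 and Cry1 (normalised CPM, from 0) in cells of the Tnnt2 gate divided by Myl2 (top row) and by UMIs of Top2a or Mki67 (bottom row), with 1 line per library. All 4 lines of Nr1d1 fall from the cells low in Myl2 to the others. They rise from the cells with at least 2 UMIs of Top2a and Mki67 together to the rest.

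A second division, also added later, used Top2a and Mki67, genes of dividing cells. It set cardiomyocyte-like cells with at least 2 UMIs of these genes together against the rest, which can hold fewer such UMIs. Nr1d1 was at 13.4 ± 1.18 in the former and 20.2 ± 2.35 in the latter, lower in 4 of 4 libraries (-0.60 ± 0.0669, adjusted p = 2.72e-06). Dbp was at 4.02 ± 0.645 and 7.02 ± 1.20 (-0.86 ± 0.112, adjusted p = 1.44e-05), and Per3 (-0.59 ± 0.138, adjusted p = 0.00263) and Cry2 (-0.30 ± 0.0931, adjusted p = 0.0163) were lower as well. Per1 was at 13.5 ± 2.87 and 15.0 ± 2.87 (-0.15 ± 0.0620, adjusted p = 0.0626). In all 4 of 10 members were lower and 0 higher, where 23% of all genes were lower and 25.3% higher, and DESeq2 kept Nr1d1 and Dbp. Wee1, a kinase of the cell cycle under clock control, and Timeless were higher in the cells with Top2a or Mki67 (0.96 ± 0.0605 and 0.48 ± 0.0629). Fbxw11, Hnrnpd, Nampt, Csnk2a1 and Csnk2b were also called higher, by smaller amounts (0.28, 0.20, 0.165, 0.10 and 0.078). Bhlhe41, Nfil3, Rora, Ppp1cb, Btrc and Gsk3b were called lower in the cells with Top2a or Mki67 (-0.47, -0.43, -0.38, -0.32, -0.21 and -0.14). These cells were deeper, with medians of 20955 to 26368 UMIs against 10145 to 15397, and the part of depth in these differences was not tested. Genes of other cells moved with the division as well. Of the 7 endothelial genes tested 6 were higher in the cells with Top2a or Mki67 and 1 lower (median 0.96), among them Emcn (1.04 ± 0.126) and Pecam1 (0.96 ± 0.15). Summed, the 7 stood at 71.5, 90.3, 115.8 and 67.8 CPM in Wt1, Wt2, Ho1 and Ho2 in these cells and at 77.7, 72.0, 75.6 and 61.8 in the rest, led by Egfl7 and with none at 0. Of 3 blood genes tested 2 were higher, and their sum, led by Hbb-y, was 206.7 against 15.5 in Ho1 but 3.46 against 23.6 in Ho2. Epicardial genes were higher in 3 of 5 and lower in 1 (median 0.37), and epithelial genes lower in 2 of 4 (-0.33). Pharyngeal mesenchyme genes were higher in 1 of 5 tested and lower in 2 (-0.41), and cushion mesenchyme genes higher in 1 of 6 and lower in 2 (0.11). Of the immediate early and heat shock genes 9 of 17 were lower in the cells with Top2a or Mki67 (Junb -0.61, Btg2 -0.46 and Jun -0.37 among them) and 2 higher, Hsp90aa1 (0.41) and Hspa8 (0.20). Their sum, led by Hspa8 and with none at 0, was slightly higher in these cells in 4 of 4 libraries, at 4026, 4238, 3755 and 4265 CPM in Wt1, Wt2, Ho1 and Ho2 against 3928, 4134, 3699 and 4247. The 2 divisions overlap, since Hey2 was higher (0.55) and Shox2, Sln and Isl1 lower (-0.87, -0.83 and -1.04) in the cells with Top2a or Mki67, each in 4 of 4 libraries. The part of these genes and of the other cells in the differences was not tested.

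Between the genotypes, the cardiomyocyte-like cells gave the pattern for which the set was chosen. Per1 in the Tnnt2 gate, normalised within that gate, was at 11.5 and 12.3 in Wt1 and Wt2 and at 16.6 and 17.0 in Ho1 and Ho2, a log2 difference of 0.49 ± 0.0952 (SE). Nr1d2 was at 5.68 and 6.25 in Wt and 8.23 and 7.40 in Ho (0.38 ± 0.125), and Arntl at 1.84 and 2.59 in Wt and 2.69 and 3.22 in Ho (0.38 ± 0.217). Dbp, Nr1d1 and Clock differed by 0.29 ± 0.133, 0.17 ± 0.100 and 0.10 ± 0.0990. In these 6 members both Ho values lay above both Wt values, which held for 19.7% of all 14846 genes (17.6% were below), and all 10 differences were positive, with a median of 0.17 against 0.01 over all genes. The rule used this contrast, and nothing is read from these counts. Without Ho1, Per1, Arntl, Dbp, Nr1d2 and Nr1d1 differed by 0.50, 0.49, 0.35, 0.29 and 0.094, while Clock (-0.000143) and Per3 (-0.027) were no longer positive. Cry1 (-0.027) and Cry2 (-0.011) turned without Ho2, and Per2 (-0.068) and Per3 (-0.018) without Wt1. The edgeR fit called 0% of genes in this gate, with 919 genes at an unadjusted p under 0.05, and DESeq2 called 24.

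Blood genes moved with genotype in the same cells. Summed, they stood at 3.66 and 9.07 CPM in Wt1 and Wt2 and at 127.2 and 16.9 in Ho1 and Ho2, led by Hbb-y, with 1 of the 5 genes at 0 in Wt1. The median log2 difference of the 4 tested was 3.59, and 1.48 without Ho1. Of the immediate early and heat shock genes 13 of 17 had positive differences (median 0.10), while 0 of 6 pharyngeal mesenchyme genes and 0 of 4 epithelial genes did (-0.38 and -0.74). Without Ho1 these were 13 of 17, 3 of 6 and 2 of 4. The median share of mitochondrial UMIs was 1.34% and 1.45% in Wt1 and Wt2 and 1.56% and 2.09% in Ho1 and Ho2. Their part in the levels of the clock genes was not tested. Fewer cells of a type inside a gate and less RNA per cell cannot be told apart in such sums.

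**Figure D4:**
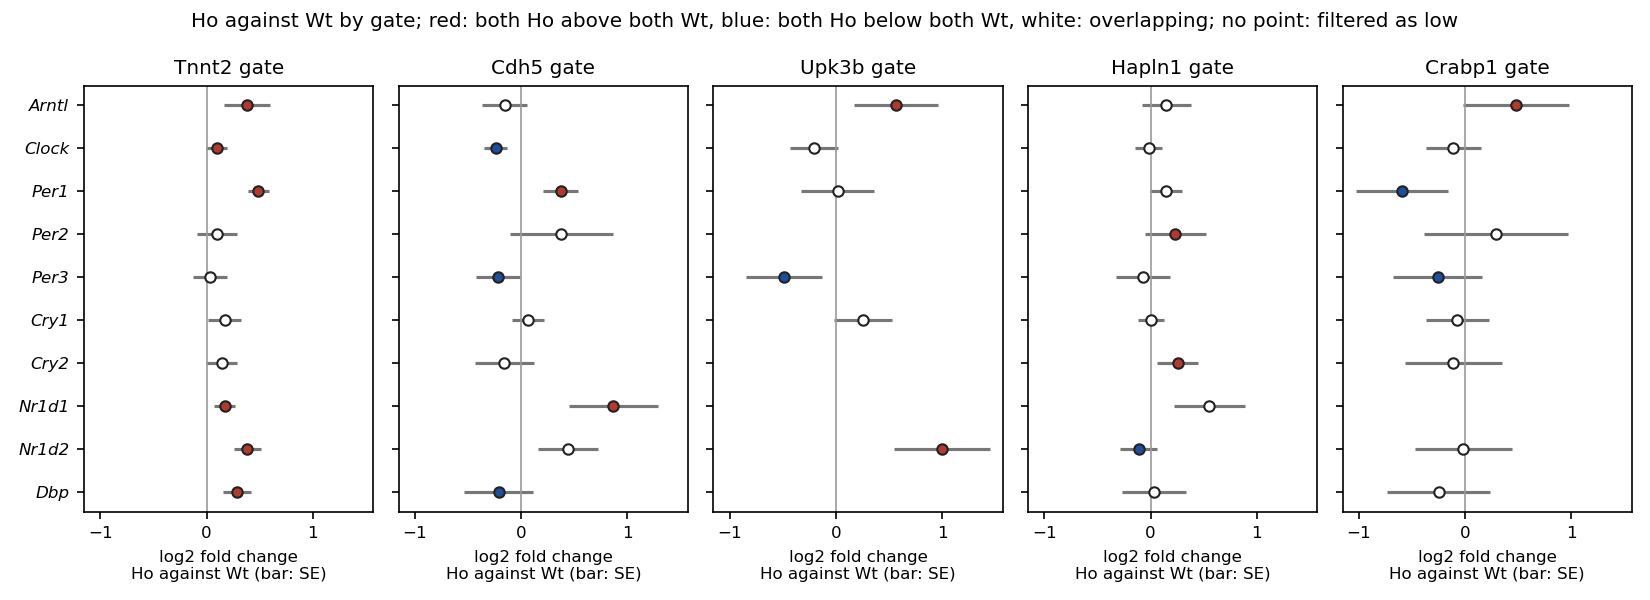
Log2 fold change of Ho against Wt (horizontal axis, bars are SE) for each member in each gate, red where both Ho lay above both Wt, blue where both lay below and white where they overlapped, with no point for a member filtered as low. The Tnnt2 gate, on which the members were chosen, has 6 red points and 0 blue, and the other gates have both colours.

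The other gates come from the same embryos, so they give no independent support, but their cells did not enter the choice. In the Cdh5 gate Per1 was at 6.76 and 8.04 in Wt and 10.2 and 9.04 in Ho (0.37 ± 0.161, adjusted p = 0.931). Nr1d1 was at 0.66 and 1.07 in Wt and 2.03 and 1.12 in Ho (0.87 ± 0.418, adjusted p = 0.931), beside the 10 cardiomyocyte genes, all 10 of which had positive differences in that gate, with a median of 0.88 (8 of 10 and 0.13 without Ho1). Whether those transcripts account for the values of Nr1d1 was not tested. The value of Nr1d1 rested on single libraries, at 0.31 without Ho1 and 1.30 without Wt2, and Per1 was at 0.27 without Ho1. Clock, Per3 and Dbp lay below Wt in both Ho libraries (-0.24 ± 0.113, -0.22 ± 0.208 and -0.21 ± 0.325), also without Ho1 (-0.26, -0.25 and -0.27). Dbp was at only -0.069 without Wt2. So 2 of 10 members were above and 3 below, against 17.1% and 17.7% of all genes.

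In the Upk3b gate, where only 6 members passed the filter, Nr1d2 was at 1.55 and 2.30 in Wt and 4.50 and 3.69 in Ho (1.00 ± 0.448, adjusted p = 0.986), from 4 to 17 UMIs a library. Arntl was also above (0.57 ± 0.397) and Per3 below (-0.49 ± 0.359), so that 2 were above and 1 below, against 15.6% and 17.5% of all genes. Without Ho1 these 3 were at 0.88, 0.65 and -0.57. In the Hapln1 gate Cry2 and Per2 were above (0.25 ± 0.196 and 0.23 ± 0.286) and Nr1d2 below (-0.11 ± 0.175), against 17.9% and 18.3%, and the sign of Nr1d2 turned under other gate minimums. Without Ho1 the 3 were at 0.39, 0.13 and -0.11. In the Crabp1 gate, with 9 members tested, Arntl was above (0.48 ± 0.501) and Per1 and Per3 below (-0.60 ± 0.433 and -0.26 ± 0.421), against 13.8% and 15.8%, and the values of Ho1 there rest on 2 or 3 UMIs. Without Ho1 the 3 were at 0.33, -0.54 and -0.19, and without Ho2 at 0.89, -0.86 and -0.57. Per1 was at -0.34 without Wt1. Cardiomyocyte genes had positive differences in these gates too, in 9 of 9 in the Upk3b gate, 9 of 10 in the Hapln1 gate and 9 of 10 in the Crabp1 gate. Their medians were 0.58, 1.11 and 1.02, and fell to 0.067, 0.20 and 0.51 without Ho1. Blood genes had medians of 2.60 in the Cdh5 gate and 1.02 in the Hapln1 gate (0.73 and 1.07 without Ho1), and pharyngeal mesenchyme genes of -1.46 and -0.47 (-0.66 and -0.19). Epicardial genes in the Hapln1 gate had a median of 1.00, with 4 of 5 above, and 13 of 17 immediate early and heat shock genes in the Upk3b gate were positive, with a median of 0.41. Epithelial genes had medians of -0.61, 0.098, -0.33 and -0.97 in the Cdh5, Upk3b, Hapln1 and Crabp1 gates (-0.32, 0.20, 0.26 and -0.42 without Ho1). Epicardial genes in the Crabp1 gate had a median of 1.34 (3 of 3 positive). Cushion mesenchyme genes were at 0.63 there (5 of 6) and at -0.11 in the Hapln1 gate (1 of 6). The part of these genes in the values of the members was not tested.

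The edgeR test called 0 members between the genotypes in the Cdh5, Upk3b, Hapln1 and Crabp1 gates. At an unadjusted p under 0.05 there was 1 member each in the Cdh5 gate (Per1) and the Upk3b gate (Nr1d2) and 0 in the other 2 gates, and DESeq2 called 0 in all 4. Over all genes 0% were called in the Cdh5, Hapln1 and Crabp1 gates, with 652, 840 and 171 genes at an unadjusted p under 0.05, and 24, 18 and 0 by DESeq2. In the Upk3b gate 4 genes, or 0.0376%, were called. Of the 27 other clock genes edgeR and DESeq2 called 0 in the Cdh5, Upk3b, Hapln1 and Crabp1 gates, and edgeR gave 1, 3, 1 and 1 at an unadjusted p under 0.05 in these gates. In the Tnnt2 gate, where the choice of a clock set used the contrast and no test is given, the largest differences were those of Bhlhe40 (0.63 ± 0.162), Rora (0.56 ± 0.113) and Fbxl21 (-0.52 ± 0.357). Bhlhe41 had the largest in the Cdh5, Hapln1 and Crabp1 gates (0.95 ± 0.50, 0.80 ± 0.474 and 1.38 ± 0.711), followed by Rorb (0.84 ± 0.358) and Hlf (-0.39 ± 0.444), by Rora (0.51 ± 0.242) and Fbxl21 (-0.49 ± 0.469) and by Wee1 (-0.65 ± 0.398) and Ppp1cb (0.53 ± 0.207). Ciart, Nfil3 and Bhlhe40 led the Upk3b gate (1.02 ± 0.423, 0.72 ± 0.255 and 0.55 ± 0.342). Without Ho1 Bhlhe41 in the Hapln1 gate turned to -0.049, Hlf in the Cdh5 gate was at -1.49, and Wee1 in the Crabp1 gate and Fbxl21 in the Hapln1 gate were at -0.32 and -0.20.

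Libraries taken at different phases of a running clock would differ along 1 axis, with Arntl low where the E-box driven genes are high. To describe this, the mean log2 level of Per1, Per2, Per3, Nr1d1, Nr1d2 and Dbp (with 0.5 CPM added) was set against that of Arntl in each library. Cry1 and Cry2, also driven through E-boxes, were left out of this mean. The members were chosen as a set higher in Ho in the Tnnt2 gate, so joint movement there is fixed by the choice and nothing on phase is read from it. In that gate Wt1 had 2.84 and 1.36, Wt2 2.97 and 1.79, Ho1 3.18 and 1.84 and Ho2 3.12 and 2.05. Wt1 lay below the mean of the 4 libraries for all 10 members, whereas 8 of 10 members were above it in Ho1 and 8 in Ho2. The difference between the arms spanned only 0.41, from 1.07 in Ho2 to 1.48 in Wt1, with the genotypes interleaved.

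**Figure D5:**
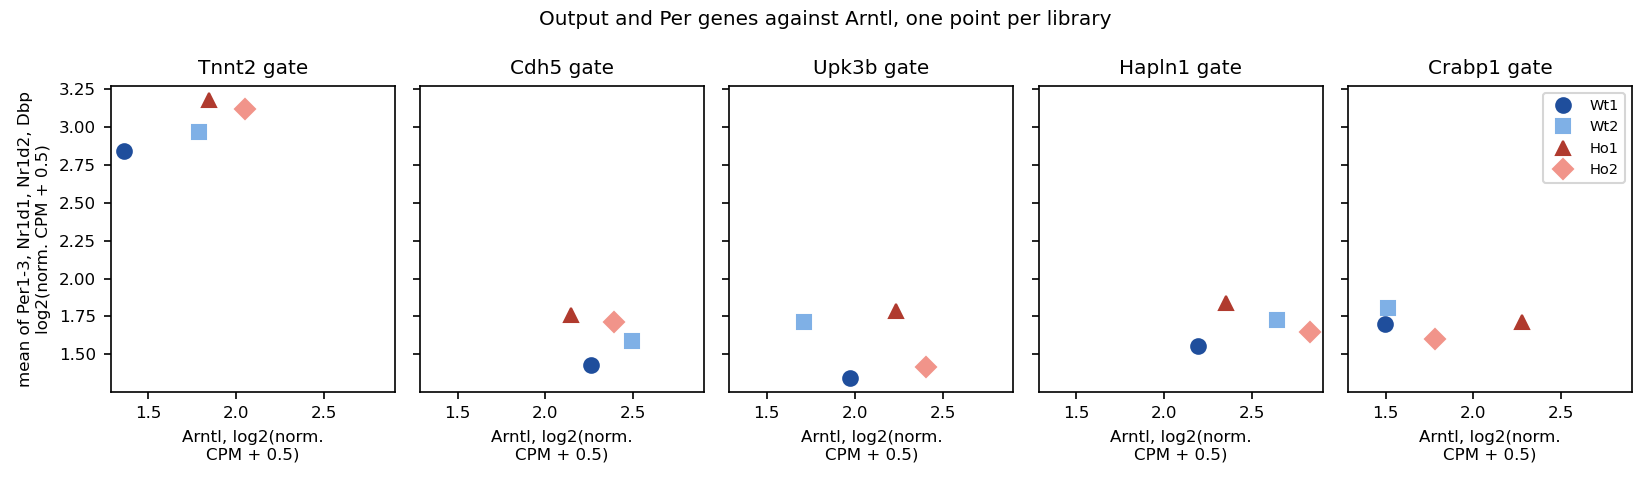
Mean log2 level of Per1, Per2, Per3, Nr1d1, Nr1d2 and Dbp (vertical axis) against the log2 level of Arntl (horizontal axis), in normalised CPM with 0.5 added, 1 point per library and 1 panel per gate. In the Tnnt2 gate Wt1 is lowest on both axes, Ho1 is highest on the vertical axis (3.18) and Ho2 on the horizontal axis (2.05), and the points of that gate stand above those of the other gates.

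The order of the libraries along this difference changed with the gate. From low to high it was Ho2, Wt2, Ho1 and Wt1 in the Tnnt2 gate, Wt2, Wt1, Ho2 and Ho1 in the Cdh5 gate, Ho2, Wt1, Ho1 and Wt2 in the Upk3b gate, Ho2, Wt2, Wt1 and Ho1 in the Hapln1 gate, and Ho1, Ho2, Wt1 and Wt2 in the Crabp1 gate. Ho2 was thus lowest in 3 gates and Wt1 highest in 1. The spans were 0.53, 0.99, 0.66 and 0.86 in the Cdh5, Upk3b, Hapln1 and Crabp1 gates. The Tnnt2 gate, at 1.07 to 1.48, lay above the other gates, at -1.18 to 0.30, whose ranges overlapped each other. Parts of this order rest on few UMIs, since Ho1 in the Crabp1 gate had 1 to 3 UMIs of each of these genes, and Wt1 in the Upk3b gate had 0 of Nr1d1, so that its value there is set by the 0.5 CPM added. At this depth no order shared by the gates could be read.

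The genes most like the 3 members with the most UMIs were sought by the Pearson correlation of log2 levels over the 20 sums of library and gate, which share libraries and depth, so the values are descriptions. Nr1d1 (3438 UMIs in all) was nearest to Gm41505 (0.94), 1810034E14Rik (0.93) and Gm20300 (0.92). Per1 (4228 UMIs) was nearest to Mt3 (0.94), a metallothionein, Cited4 (0.94), a coactivator of transcription, and Bcorl1 (0.93), a corepressor. Clock (6631 UMIs) was nearest to Clasp1 (0.91), a microtubule binding protein, Insr (0.90), the insulin receptor, and Jmy (0.89), an actin nucleator.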

How the data were processed

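Hearts of E10.5 embryos were measured by droplet single-cell RNA sequencing, in 2 Wt and 2 Ho libraries. The authors aligned reads to mm10 with Cell Ranger 6.1.1 and deposited raw UMI counts per gene and barcode, before filters. Barcodes were dropped over 20% mitochondrial UMIs, outside 500 to 50000 UMIs or outside 500 to 6000 genes. A cell entered a gate with at least 2 UMIs of the marker and at least 10 (Tnnt2) or 2 (others) per 10000 UMIs. The Tnnt2 and Cdh5 gates excluded each other, the Upk3b gate excluded both, and the Hapln1 and Crabp1 gates excluded all other markers, which also served to leave out doublets (Scrublet in scanpy 1.11.5 as an alternative). UMIs were summed per library and gate, giving 20 sums.

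edgeR 4.0.16 (R 4.3.3) compared each gate with the mean of the other 4 after TMM normalization and filterByExpr, with the library as a block, and Ho with Wt within each gate, with Benjamini-Hochberg adjustment over all genes tested at 0.05. Levels are normalised counts per 1000000 (CPM), over the 20 sums for gates and within a gate for genotypes. The mapped UMIs per library ranged from 107377100 to 127018819 in the deposited counts, and intervals beyond these libraries were not given. The members and lists were chosen with earlier results of these data known. Of the list of other clock genes, 1 gene is not reported here and is left out of its counts. All 10 members were described, with log2 fold changes for members called between gates or with no overlap between genotypes. Counts of 0 were read against 3 UMIs. DESeq2 1.42.0, RLE normalization, other filters, gate minimums and quality limits, the replicate number as a block and leaving out each library were alternatives. The fits were tested on simulated data. Groups within the Tnnt2 gate were added after the data were seen. Replicate numbers were not treated as pairs in the main fits, and positions follow the GENCODE M21 annotation (GRCm38).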

Additional observations from a re-analysis of the deposited data

Results flagged for a closer look

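In all, 4 members lay above Wt in both Ho libraries of one gate and below Wt in both Ho libraries of another, and the difference between the gates was not tested for any of them. Per1 differed by 0.49 (log2, Ho against Wt) in the Tnnt2 gate and 0.37 in the Cdh5 gate, but by -0.60 in the Crabp1 gate, where Ho1 had 2 UMIs. Clock differed by 0.10 in the Tnnt2 gate and -0.24 in the Cdh5 gate. Dbp differed by 0.29 in the Tnnt2 gate and -0.21 in the Cdh5 gate (-0.069 without Wt2). Nr1d2 differed by 0.38 in the Tnnt2 gate, 1.00 in the Upk3b gate and -0.11 in the Hapln1 gate. The Tnnt2 gate is the one on which the members were chosen. Groups of 2 libraries were too small for a search for outlying samples.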

How the results depend on the processing

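Between gates, the direction of every member called was kept under the 353 repeats of these values (RLE normalization, DESeq2, other filters, gate minimums and quality limits, and each library left out), and 35 of them were no longer called, with 0 of these for Nr1d1 and 3 in the Tnnt2 gate, all for Cry1. With at least 10 counts in every sum few sparse genes could be tested, and 4826, 3786, 3416, 3069 and 3855 genes were called in the Tnnt2, Cdh5, Upk3b, Hapln1 and Crabp1 gates, in place of 10428, 8574, 6594, 6675 and 7732, with 1, 0, 1, 0 and 0 members in place of 9, 6, 4, 2 and 6. Doubled gate minimums left 3 members in the Cdh5 gate and 2 in the Upk3b gate. Leaving out each library gave 9598 to 10283, 7235 to 8221, 5159 to 6197, 5312 to 6166 and 6312 to 7746 genes and 8 to 9, 4 to 6, 2 to 3, 2 to 3 and 4 to 5 members in that order of gates, and the 2 members of the Upk3b gate were reached without Ho2 or without Wt2. In the Myl2 division DESeq2 called 1 member in place of 2, and in the division by Top2a or Mki67 4026 genes and 2 members in place of 6574 and 4. These divisions gave 5740 to 6397 and 5503 to 6270 genes and 2 to 3 and 3 to 5 members with each library left out.

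Between Ho and Wt no member was called in the Cdh5, Upk3b, Hapln1 or Crabp1 gate under any of the 60 repeats, but counts of all genes were unstable. In the Tnnt2, Cdh5, Upk3b, Hapln1 and Crabp1 gates the main counts were 0, 0, 4, 0 and 0. With no filter on low counts they were 254, 221, 101, 272 and 127. DESeq2 gave 24, 24 and 18 in the Tnnt2, Cdh5 and Hapln1 gates. Without Scrublet doublets there were 1, 7 and 5 in the Tnnt2, Upk3b and Hapln1 gates, with doubled gate minimums 1, 2 and 1 in the same gates, and with halved minimums 2 and 1 in the Upk3b and Hapln1 gates. Leaving out each library gave 0 to 136, 18 to 175, 3 to 100, 0 to 410 and 0 to 117 genes, with the highest counts without Ho2 in the first 4 gates and without Wt2 in the Crabp1 gate. The cause of these shifts was not tested.

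The replicate number as a block called 0, 0, 26, 40 and 0 genes and 0 members. Deviations of libraries with the same number correlated at -0.18, -0.09, 0.01, -0.05 and -0.20. With 2 libraries per genotype these values cannot show whether the numbers pair the libraries. A crossed replicate block, added after the data were seen, called 120, 28, 14, 17 and 166 genes. The difference of Clock in the Tnnt2 gate turned to -0.000143 without Ho1 (and was 0.18 without Ho2), and that of Nr1d2 in the Hapln1 gate to 0.071 and 0.16 with doubled and halved gate minimums. That of Arntl in the Tnnt2 gate was 0.68 without Wt2, 0.18 without Wt1 and 0.24 without Ho2, in place of 0.38. Sparse members limit the depth of these results, since 7 of the 200 sums of members held fewer than 3 UMIs.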
